A study of Rattus norvegicus with 2 samples.

Results

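The NKR-P1 receptor genes and genes of the Clr family, which includes their lectin-like ligands, were examined in natural killer (NK) cells of rat spleen. Members were all probe sets whose platform gene symbol begins with Klrb1 or Clec2. This gave 6 genes with 1 probe set each, out of 14217 genes that had a probe set of their own. The genes were Klrb1a, Klrb1b and Klrb1c for the receptors, and Clec2d, Clec2d2l2 and Clec2l for the ligand family. Clec2l was included by its symbol, and whether it encodes a ligand of these receptors was not examined. Spleens came from 9 PVG.7b rats aged 8 to 12 weeks, and no treatment or genetic alteration is named in the labels. Cells of both populations were negative for CD3 and positive for NKR-P1A, and carried either NKR-P1B or Ly49s3 but not both, with a sorted purity above 90%. RNA of each population went onto 1 array. Without replicates nothing could be tested, and each difference is a description of these 2 arrays. Because RNA of many cells was measured together, fewer cells expressing a gene and less RNA per cell cannot be told apart.

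NKR-P1 receptors are C-type lectin-like proteins of the NK cell surface. Some members activate the cell and others inhibit it, and their ligands are Clr proteins encoded by genes lying among the receptor genes in the NK gene complex. NKR-P1A is the classic marker of rat NK cells and an activating receptor. NKR-P1B carries an inhibitory motif in its cytoplasmic tail, by which it recruits tyrosine phosphatases. Ly49s3 is an activating receptor of another lectin-like family of the same complex.

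The 3 receptor genes are close relatives, so the bases upstream of their start sites are shown first. The sequences are from RefSeq (GRCr8 assembly, BN strain, not PVG.7b) and give the 250 bases before each annotated start, 5′ to 3′. Capitals mark every run of at least 10 bases that all 3 windows share. Klrb1a lies at chr4:163590148-163590397, minus strand; Klrb1b at chr4:163647630-163647879, minus strand; and Klrb1c at chr4:164067999-164068248, plus strand.
Klrb1a: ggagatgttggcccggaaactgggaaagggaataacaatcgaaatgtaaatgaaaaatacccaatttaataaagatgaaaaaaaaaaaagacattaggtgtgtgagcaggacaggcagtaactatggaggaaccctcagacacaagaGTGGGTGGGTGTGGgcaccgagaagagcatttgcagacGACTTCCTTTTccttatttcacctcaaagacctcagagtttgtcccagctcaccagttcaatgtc
Klrb1b: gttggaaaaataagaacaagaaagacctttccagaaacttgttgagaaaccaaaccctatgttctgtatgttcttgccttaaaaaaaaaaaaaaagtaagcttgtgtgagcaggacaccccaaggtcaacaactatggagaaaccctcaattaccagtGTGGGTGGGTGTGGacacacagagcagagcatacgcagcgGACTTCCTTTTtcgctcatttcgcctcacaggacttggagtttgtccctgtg
Klrb1c: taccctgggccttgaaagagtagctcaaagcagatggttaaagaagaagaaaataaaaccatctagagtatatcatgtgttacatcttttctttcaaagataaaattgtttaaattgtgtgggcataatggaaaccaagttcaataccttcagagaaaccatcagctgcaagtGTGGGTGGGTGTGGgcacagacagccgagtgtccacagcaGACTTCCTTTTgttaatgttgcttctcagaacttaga

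The 3 windows share the 14-base run GTGGGTGGGTGTGG and the 11-base run GACTTCCTTTT. The first lay at bases -103 to -90 from the start of Klrb1a, at -92 to -79 for Klrb1b and at -77 to -64 for Klrb1c. The second followed it after 24 bases in Klrb1a and 26 bases in Klrb1b and in Klrb1c. Searched on both strands, the longer run was in 4 of 33469 RefSeq windows of this length (0.012%) and the shorter in 13 (0.0388%). These counts include the 3 windows from which the runs were taken. Both runs were found together in those 3 windows, of Klrb1a, Klrb1b and Klrb1c, and in no other. The window of Klrb1, the remaining Klrb1 gene, held neither run. The windows of Klrb1a and Klrb1b were identical at 67.6% of their length after alignment, the highest of the 6 pairs among 4 Klrb1 genes, which ranged from 56.0%. Against windows of Clec2 genes the range was 36.8% to 52.4% over 40 pairs. These are matches of letters and say nothing of use by the cell. Klrb1a and Klrb1b were sort markers, and whether the runs bear on any signal was not tested.

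Signals are in the arbitrary units of the array software, and a floor of 20.4, the median of all signals, separates low from measured values. The NKR-P1B gene Klrb1b gave 1399 in NKR-P1B+ cells and 29.4 in Ly49s3+ cells. It was high on the array of the cells sorted for it and just above the floor on the other, where its signal was 2.10% of the higher value. The ratio was 47.6-fold, a log2 difference (NKR-P1B+ minus Ly49s3+) of 5.57. Since Klrb1b was a sort marker, this checks the labels and is no finding. Klrb1a, which encodes the NKR-P1A required of both populations, had signals of 3740 and 3813. They were 1.02-fold apart, a log2 difference of -0.03, so the arrays agreed on the marker that the sorts had in common. Among the 9114 measured genes, those above the floor on 1 array or both, no other was as far toward NKR-P1B+ cells as Klrb1b. The next, Acss2, which encodes a cytosolic enzyme making acetyl-CoA, was 7.40-fold higher (563 against 76.1).

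**Figure D1:**
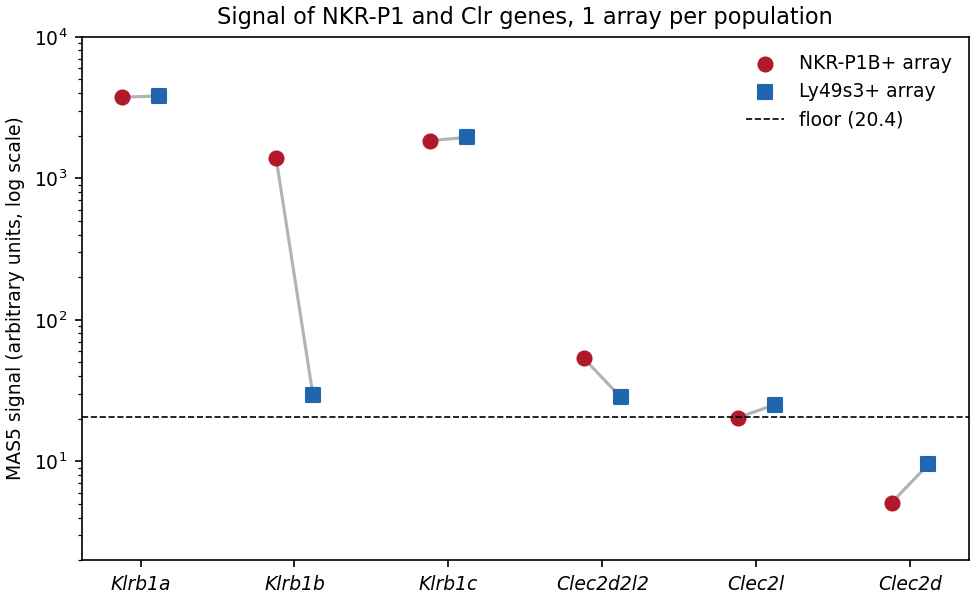
MAS5 signal of each NKR-P1 and Clr gene on the NKR-P1B+ array (circles) and the Ly49s3+ array (squares), on a log scale, with the floor of 20.4 dashed; each point is 1 array. Klrb1b falls from 1399 to 29.4, Klrb1a and Klrb1c stay near their level, and Clec2d lies below the floor on both arrays.

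Klrb1c, for which RefSeq lists NKR-P1F among its names, was not used for sorting. Its signal was 1845 in NKR-P1B+ cells and 1944 in Ly49s3+ cells. The values were high on both and 1.05-fold apart, a log2 difference of -0.08. As a scale for this, genes with 2 probe sets were used, where the disagreement of the probe sets about the same difference gives an SD. Around the signal of Klrb1c this SD was 0.13 over 68 genes, so its difference was 0.58 times that spread. The spread comes from the same 2 arrays and holds no variation among animals or sorts. The Klrb1c signal was thus near equal in cells with NKR-P1B and in cells with Ly49s3, within the disagreement of probe sets. Klrb1a was within its spread too, at 0.26 times an SD of 0.11 over 24 genes. The similarity of NKR-P1 genes means that a probe set may also take signal from a relative, so levels assigned to single receptors are uncertain. How much each probe set does so was not tested.

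**Figure D2:**
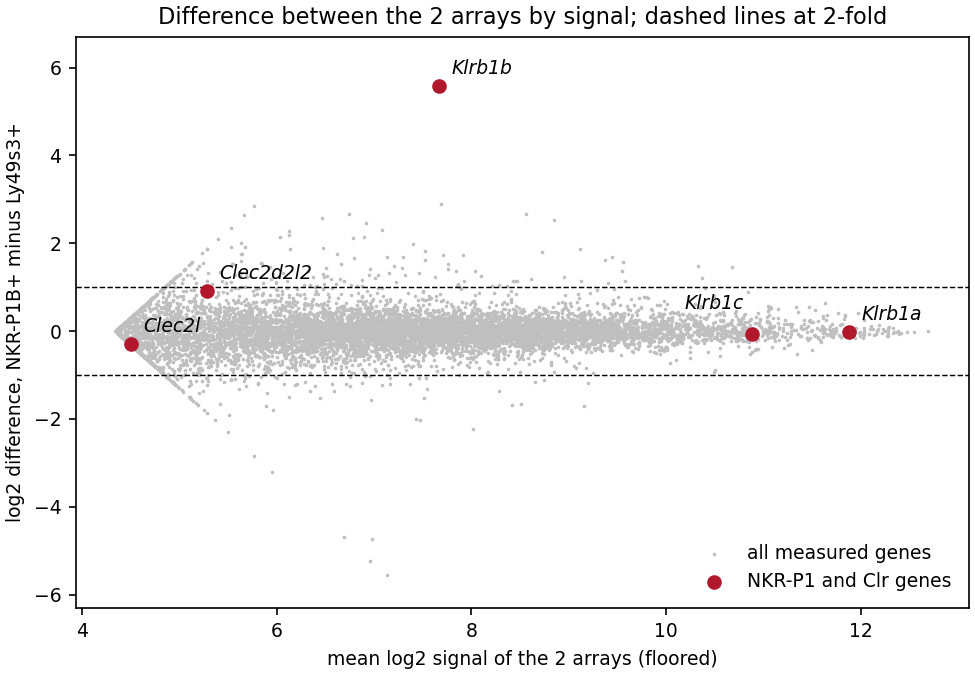
Log2 difference between the arrays (NKR-P1B+ minus Ly49s3+) against the mean log2 signal for all 9114 measured genes (grey) and the 5 measured NKR-P1 and Clr genes (red), with dashed lines at 2-fold. Klrb1b stands at 5.57, Clec2d2l2 at 0.91 among genes of low signal, and Klrb1a and Klrb1c at -0.03 and -0.08 among bright genes.

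The 3 Clec2 genes analysed here had low signals on both arrays. Clec2d2l2, also listed by RefSeq as Clr4, had 53.4 in NKR-P1B+ cells and 28.4 in Ly49s3+ cells. It was above the floor on both and 1.88-fold higher in NKR-P1B+ cells, a log2 difference of 0.91. That was 2.68 times the probe set spread near its signal (SD 0.34 over 466 genes). Of 3134 genes within 1 log2 unit of its mean signal, 110 were at least as far toward the NKR-P1B+ array (3.51%). In either direction 212 were at least as far apart (6.76%). The difference depended on how low signals were treated. It was 0.50 with 32 added to every signal in place of the floor, and 0.016 with the floor raised to 52.8, the 65th percentile.

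Clec2l, the Clr relative outside the cluster, had 20.3 in NKR-P1B+ cells and 25.1 in Ly49s3+ cells. The first was just below the floor and the second just above it, so the Ly49s3+ array was at least 1.23-fold higher, a log2 difference of -0.30 or 0.81 times the spread at this signal (SD 0.37 over 120 genes). Clec2d, which RefSeq also lists as Ocil, had 5.1 and 9.5. Both values were below the floor, so no fold is given. Signal of Clec2d was therefore not measurable on either array, which does not show that its RNA was absent.

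Of the 6 genes, 5 were above the floor on at least 1 array and 4 on both. Klrb1b and Clec2d2l2 were higher in NKR-P1B+ cells by 1.5-fold or more, as were 5.06% of all measured genes. None was that much higher in Ly49s3+ cells, as were 5.72% of all measured genes. Without the sort markers, 1 of 3 measured genes was past 1.5-fold, against 10.8% of all measured genes in either direction. Near the signal of Clec2d2l2 that share was 18.4%. At 2-fold the count was 1 in NKR-P1B+ cells, Klrb1b, and 0 in Ly49s3+ cells, against 1.78% and 1.21% of all measured genes, 2.98% in either direction. The median log2 difference of the 5 measured genes was -0.03, and that of all measured genes -0.02.

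In the RefSeq gene order of chromosome 4, the NKR-P1 and Clr genes form a cluster of 18 protein-coding genes, of which 4 are Klrb1 and 11 are Clec2 genes. Klrb1a and Klrb1b, both sort markers, are next to each other at one end. Clec2d2l2 and Clec2d follow further in, also next to each other, and Klrb1c lies toward the middle. Cd69, an early activation antigen encoded within the cluster, had 4586 and 4244, a log2 difference of 0.11. Beside Klrb1a outside the cluster, A2ml1, a relative of the protease inhibitor alpha-2-macroglobulin, had 23.3 and 32.5 (-0.48). At the other end Clec12a, an inhibitory lectin of myeloid cells, was below the floor on both arrays. Between Klrb1a and Klrb1c, 2 Clec2 genes had a value, Clec2d2l2 and Clec2d, and between Klrb1c and Cd69 no gene was analysed here. The other 10 Klrb1 and Clec2 genes of the cluster were not analysed here. Clec2g is among them, listed by RefSeq as Clr11, a name given to a ligand of NKR-P1B. Clec2l lies on the same chromosome with 761 protein-coding genes between it and the cluster.

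**Figure D3:**
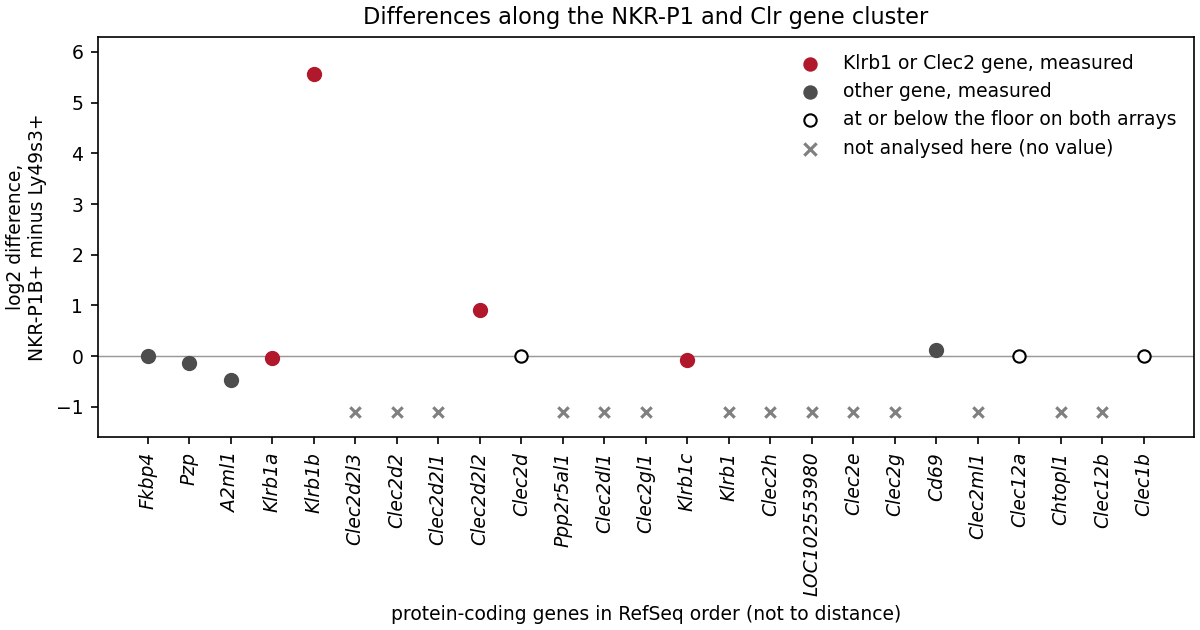
Log2 difference (NKR-P1B+ minus Ly49s3+) of protein-coding genes in RefSeq order along the NKR-P1 and Clr cluster, with 3 to 4 genes on each side; crosses mark genes not analysed here and have no value. Klrb1b at 5.57 lies next to Klrb1a at -0.03, while Clec2d2l2 is at 0.91 and Klrb1c at -0.08.

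The 250 bases before the start of Clec2d2l2 (chr4:163850895-163851144, minus strand of GRCr8) were identical to those of Clec2d2l1, which comes just before it in the gene order, at 85.6% of their length. The window is shown because Clec2d2l2 was the only 1 of these NKR-P1 and Clr genes past 1.5-fold that was not a sort marker. Capitals mark the longest run it shares with Clec2d2l1, 78 bases from -138 to -61.
Clec2d2l2: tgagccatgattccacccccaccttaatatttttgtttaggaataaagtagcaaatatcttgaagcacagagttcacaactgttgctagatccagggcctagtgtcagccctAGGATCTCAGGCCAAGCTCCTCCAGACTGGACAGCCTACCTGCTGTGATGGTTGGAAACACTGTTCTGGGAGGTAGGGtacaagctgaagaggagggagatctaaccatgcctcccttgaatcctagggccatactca

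This likeness is of the upstream bases only. Whether the Clec2d2l2 probe set also reads Clec2d2l1 was not tested.

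Genes with signals most like those of the receptors were sought by the distance between log2 signals over the 2 arrays. Transcripts known only by a LOC, RGD or Rn number were left out. For Klrb1b the nearest were Acss2 at a distance of 1.90, the membrane glycoprotein gene Cd93 at 2.42, the secreted glycoprotein gene Olfm1 at 2.43 and Ankrd6 at 2.44. No gene lay close to it, and these 4 were between 5.48-fold and 7.40-fold higher on the NKR-P1B+ array. For Klrb1a the nearest were the ribosomal protein genes Rpl12 and Rpl4, the ribosomal scaffold gene Rack1 and Ctla2a, at distances from 0.021 to 0.040. For Klrb1c they were Bpnt2, the leucyl-tRNA synthetase gene Lars1, Wipf1, which encodes a partner of the WASP actin regulator, and the RNA-binding protein gene Nono, at distances from 0.020 to 0.032. With 2 arrays this likeness means a like signal and ratio only.

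Receptors of this family signal through kinases, adaptor chains and phosphatases. A list of 33 such genes was used, of which 32 had a probe set and 29 were measured. On the deposited scale 28 of the 29 were within 1.5-fold, with a median log2 difference of -0.01 beside -0.02 for all measured genes. The 1 gene past 1.5-fold compares with 10.8% of all measured genes, and with 2.78% of genes near the bright signal of Klrb1c, so this count is no result about the list. The Src family kinase gene Lck had 4041 and 4122, and Fcer1g, the Fc receptor gamma chain used by activating receptors, had 4000 and 3331. Of the phosphatases of inhibitory receptors, Ptpn6, which encodes SHP-1, had 862.6 and 905.6, Ptpn11, which encodes SHP-2, had 562 and 618, and Inpp5d, which encodes SHIP-1, had 469.6 and 344.5. The last had the highest log2 difference of the list, 0.45. Sh3bp2, an adaptor, was the 1 gene past 1.5-fold, 1.57-fold higher on the Ly49s3+ array at low signal (32 against 50.3).

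Other lectin-like genes of the complex, none of them named as a sort marker, were described in the same way. Of 19 listed, 14 had a probe set and 8 were measured, with a median log2 difference of 0.06. Klrc1 (154 against 31.9) and Klrc2 (302 against 60.9), which encode NKG2 chains, were 4.84-fold and 4.96-fold higher on the NKR-P1B+ array. Klrh1 was 26.4-fold higher on the Ly49s3+ array, and Klre1, whose product pairs with other lectin-like chains, 1.59-fold. The brightest, Cd69 and Klrd1, were within 1.5-fold like Klrb1a and Klrb1c.

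**Figure D4:**
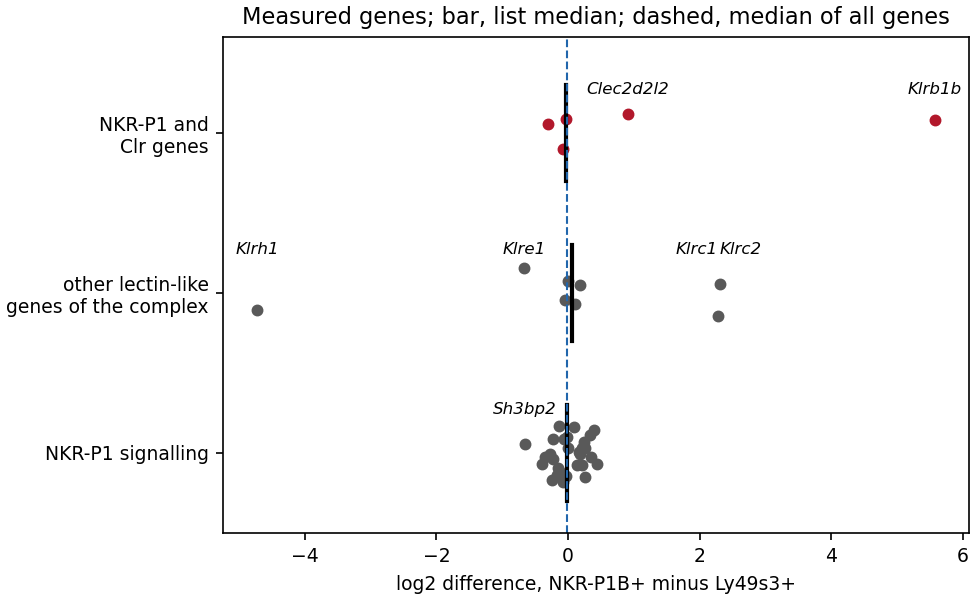
Log2 difference (NKR-P1B+ minus Ly49s3+) of each measured gene among NKR-P1 and Clr genes, other lectin-like genes of the complex and NKR-P1 signalling genes; bars are list medians, the dashed line is the median of all measured genes at -0.02, and genes at least 1.5-fold apart are named. The signalling genes lie between -0.65 and 0.45, and the other lectin-like genes Klrc1, Klrc2 and Klrh1 are several fold apart. Among NKR-P1 and Clr genes only Klrb1b, a sort marker, is past 2-fold.

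All 9 NK cell markers with a probe set were measured on both arrays, the brightest being the perforin gene Prf1 (4024 and 3006) and the granzyme gene Gzmb (3973 and 2549). T cell markers Cd3d and Cd3e, B cell markers Cd79b and Ms4a1 and macrophage markers Cd68 and Csf1r were below the floor in both populations. The third CD3 chain gene, Cd3g, was above it on both (22.3 and 42.9). Of 11 T cell genes 8 were measured, 4 higher in each population. Cd28 (30.6 and 36) and Cd4 (3.3 and 20.6) were among them at low signal. Trat1, an adaptor of antigen receptors, was 4.02-fold higher in Ly49s3+ cells (86.2 against 346) and Cd3g 1.92-fold. In the other direction, Cd5 was 2.27-fold (92.7 against 40.8) and Cd6 1.52-fold (273 against 179) higher in NKR-P1B+ cells. Trat1, Cd3g, Cd4, Cd5, Cd6 and Cd28 are named here after their values were seen. The markers below the floor are also named outside the rule for named genes. The brightest T cell genes were Cd8a, which rat NK cells also express (2151 and 767), and Bcl11b (637 and 429). The summed T cell signals were 3305 and 1896, and 1154 and 1128 without Cd8a. Of 5 B cell genes 2 were measured (Cd22, 103 and 52.9, and Blnk, 26.1 and 0.9; summed signals 149 and 85.7), and of 9 macrophage and dendritic genes Itgax (2281 and 1716) and Lyz2 (356 and 133; summed signals 2682 and 1902). Itgax made up most of the macrophage and dendritic sum on both arrays. The B cell and the macrophage and dendritic sums were higher in NKR-P1B+ cells, as Clec2d2l2 was. So were the T cell sum and the NK marker sum (19671 against 16612). Of the 9 NK markers, 6 were higher in NKR-P1B+ cells and 3 in Ly49s3+ cells. What part the cells behind these sums have in the Clec2d2l2 difference was not tested.

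The arrays had equal trimmed means as deposited, and the spiked poly-A controls were lower on the NKR-P1B+ array, by a median log2 difference of -0.53 over 17 probe sets. Scaling to these spikes moved the median of all measured genes to 0.50. Klrb1a then had a log2 difference of 0.50, Klrb1c of 0.46, Clec2d2l2 of 1.44 and Klrb1b of 6.10. Near-equal signals in both populations therefore refer to the deposited scale.

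**Figure D5:**
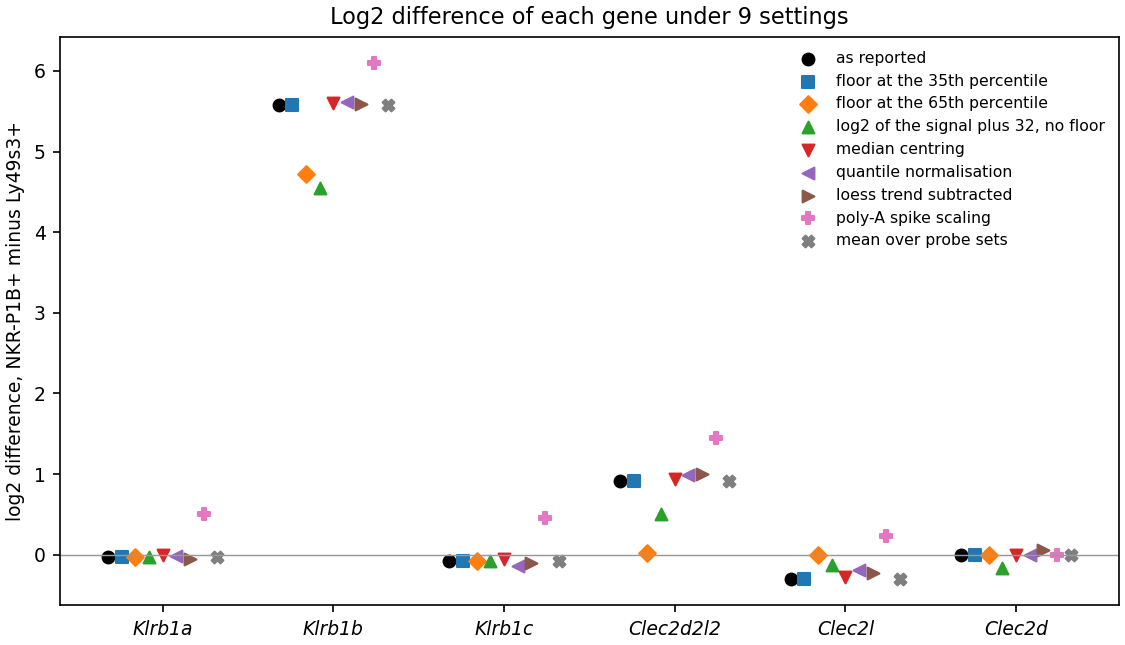
Log2 difference (NKR-P1B+ minus Ly49s3+) of each NKR-P1 and Clr gene as reported (black) and under the other ways of scaling or flooring the signals. Klrb1b stays between 4.54 and 6.10, Clec2d2l2 ranges from 0.016 to 1.44, and scaling to the poly-A spikes gives the highest value for each gene except Clec2d.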

How the data were processed

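RNA of 2 sorted populations (3 ug each, labelled as biotinylated cRNA per the labels' protocols) was measured on 1 expression array each. The authors used MAS5, per the submitters' processing notes, and deposited its linear intensity values, which run from 0 to 6639. Not given in the sources used here are its version, scaling target and detection calls, and how rats were pooled. The mean trimmed by 2% at each end was 100.04 on both arrays. Of 31099 probe sets, 20832 had 1 gene symbol, 436 several and 9831 none listed. RefSeq (GRCr8) held the gene numbers of 20764 and changed 0 symbols.

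Signals below 20.4, the 50th percentile over both arrays without controls, were set to that floor and converted to log2. The probe set with the highest mean represented a gene. With 1 array per population no p-value was computed. The members, the 6 gene lists (4 of cell type markers) and the rule for named genes were chosen with earlier results of these data known. That rule takes all members, signalling and lectin genes at least 1.5-fold apart (up to 4 per list and direction) and the 2 brightest of each list, cell type lists included. It also takes genes next to or inside the cluster and the 4 nearest genes of each receptor. For the nearest genes, transcripts known only by a LOC, RGD or Rn number were left out. Ptpn6, Ptpn11, Inpp5d and the cell type markers other than the brightest were named outside the rule. The probe set spread is an SD: the disagreement of a gene's 2 brightest probe sets about the log2 difference, as root mean square over genes within 1 log2 unit of signal, divided by the square root of 2. Upstream windows were aligned globally with Biopython 1.88 (match 2, mismatch -1, gap opening -5, extension -1). Python 3.11.15 and statsmodels 0.14.6 were used, and the calculation was tested on simulated data. The 8 alternatives were other floors (35th and 65th percentile), 32 added in place of a floor, median centring, quantile normalisation, a subtracted loess trend with a span of 0.3, scaling to poly-A spikes, and the mean over probe sets. No per-sample column was left unused.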

Additional observations from a re-analysis of the deposited data

How the results depend on the processing

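Under 8 alternatives the log2 difference of Klrb1b stayed positive. Those of Klrb1a and Klrb1c moved by no more than the probe set spread, except with scaling to poly-A spikes. Other floors and the mean over probe sets could not change these genes, since both are bright and have 1 probe set. Clec2d lay below every floor used, so flooring alone set its difference to 0, and its values are no check. Scaling to poly-A spikes gave 0.50 for Klrb1a, 6.10 for Klrb1b, 0.46 for Klrb1c, 1.44 for Clec2d2l2 and 0.23 for Clec2l (-0.30 as reported). Its medians were 0.52 for the signalling and 0.59 for the lectin list. It shifts all genes, whose median became 0.50. The floor at the 65th percentile gave 4.73 for Klrb1b and 0.016 for Clec2d2l2, and 32 added to the signal gave 4.54 and 0.50, since both raise the lower value. Genes higher in NKR-P1B+ cells by 2-fold or more numbered 162 as reported, 273 and 86 with the floor at the 35th and 65th percentile, 77 with 32 added and 648 with spike scaling. In Ly49s3+ cells there were 110 as reported, 298 and 43 with those floors, 37 with 32 added and 31 with spike scaling. No paired analysis was possible because each population has 1 array. The number of arrays, and for the Clr genes signals near the floor, limit what these data show.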
